A study of Mus musculus with 6 samples.

Results

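The 10 genes described here are ligands, receptors and transcriptional targets of fibroblast growth factor (FGF) signalling, chosen by symbol: the receptors Fgfr1, Fgfr2 and Fgfr3, the secreted ligands Fgf2, Fgf9, Fgf10 and Fgf18, and the targets Spry1, Spry2 and Etv5. All 10 were found among the 53379 genes of the count table, and all 10 passed the low-count filter into the test of 21244 genes. The table held total RNA sequencing of cortex from newborn C57BL/6 mice at postnatal day 0, with 3 Npas3+/- libraries, which carry 1 disrupted copy of the bHLH-PAS transcription factor gene Npas3, and 3 wild-type (WT) libraries. The sources used here do not describe the Npas3 allele, and the labels do not tie replicates to different animals, so p-values measure the spread between these libraries, which may be technical in part.

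FGF ligands bind receptor tyrosine kinases together with heparan sulfate, and the receptors signal through adaptor proteins to the Ras and ERK kinase relay. ERK activity turns on ETS transcription factors such as Etv5 and the Sprouty genes, whose products dampen the same relay, so the targets serve as feedback. In the developing cortex the receptors are known from ventricular progenitors, where FGF signalling supports radial glia and later glial cells, and Fgfr3 is also known as a gene of astrocytes.

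Total counts ran from 75540885 to 87811574 in the Npas3+/- libraries and from 67378231 to 83256308 in WT. At this depth 1 CPM (a read count scaled to a fixed total, by edgeR's effective library size) stood for 67.7 to 87.9 reads. The levels of Npas3 were 14.96, 14.13 and 8.61 CPM in Npas3+/- cortex and 23.4, 28.4 and 25.7 CPM in WT, so every Npas3+/- library lay below every WT library, with an adjusted p of 0.27 in edgeR. On the leading principal component Npas3+/- replicate 3 lay at 23.0, within the WT range of 10.8 to 47.7, while the other Npas3+/- libraries lay at -65.9 and -44.1. Xist, the transcript that coats the inactive X chromosome in females, reached 3667 CPM in Npas3+/- replicate 2, while no other library exceeded 2.025 CPM, so that library held tissue of a female and did not share its animal with the others. The summed level of 8 projection neuron markers was 2288 to 3159 CPM in Npas3+/- and 2265 to 2519 CPM in WT, and all 8 were tested. Of 5 choroid plexus markers Folr1, Clic6 and Otx2 averaged under 0.5 CPM, while Ttr stood at 1.41, 1.91 and 0.622 CPM in Npas3+/- and 0, 0.238 and 0 CPM in WT, without overlap (adjusted p = 0.29). The means of Folr1, Clic6 and Otx2 were lower in Npas3+/- (0, 0.119 and 0.082 CPM) than in WT (0.103, 0.365 and 0.127 CPM). Kcne2 averaged 0.596 CPM in Npas3+/- and 0.483 CPM in WT, and its groups overlapped. The summed level of the 5 was 1.46 to 2.71 CPM in Npas3+/- and 0.711 to 1.68 CPM in WT, and its part in the results was not tested.

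Promoter sequence is shown here for 3 genes, namely that of the 2 members with the smallest p-values, Fgf9 and Fgfr3, and that of the only other member whose window held the letters searched, Etv5. Each is the 250 bases before an annotated start, 5′ to 3′ on the strand of the gene, from RefSeq (build GRCm38.p6), and capitals mark ACGTG or its reverse complement CACGT, the core bound by many bHLH-PAS dimers.
Fgf9 chr14:58072436-58072685 (plus strand): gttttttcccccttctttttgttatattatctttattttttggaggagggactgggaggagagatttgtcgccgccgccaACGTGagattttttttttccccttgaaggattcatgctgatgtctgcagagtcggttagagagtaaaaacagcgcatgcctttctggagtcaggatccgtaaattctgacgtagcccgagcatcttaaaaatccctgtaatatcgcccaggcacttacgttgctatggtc
Fgfr3 chr5:33721474-33721723 (plus strand): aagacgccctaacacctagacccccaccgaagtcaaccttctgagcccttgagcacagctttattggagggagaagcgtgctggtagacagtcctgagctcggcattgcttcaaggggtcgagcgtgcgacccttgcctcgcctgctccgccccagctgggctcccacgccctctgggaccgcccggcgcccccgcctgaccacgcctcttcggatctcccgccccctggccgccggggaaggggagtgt
Etv5 chr16:22439571-22439820 (minus strand): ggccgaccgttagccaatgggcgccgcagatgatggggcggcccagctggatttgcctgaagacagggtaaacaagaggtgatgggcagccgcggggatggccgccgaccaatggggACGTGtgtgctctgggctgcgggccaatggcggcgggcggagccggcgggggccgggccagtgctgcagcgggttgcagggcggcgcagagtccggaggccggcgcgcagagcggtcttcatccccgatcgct

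The RefSeq table held 11 such windows for 9 of the 10 members. The letters ACGTG were searched on both strands, and where they lie inside CACGTG they match on both. They occurred in 2 of the 11 windows, starting 170 bases before the start of Fgf9 and 133 bases before one start of Etv5, and in 16.6% of the 32851 promoter windows of this length. The letters CCGGAA, a core of ETS factor sites, were searched in the same way and do not overlap the first motif. They occurred in 0 of the 11 windows and in 12% of all windows. These matches describe the letters of the windows and are not evidence of binding.

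Per kilobase of annotated exon, the targets Etv5 and Spry2 stood highest among the 10 genes and Fgf2 lowest, while the third target, Spry1, lay among the receptors and ligands. Etv5 had a mean of 19.1 ± 1.59 CPM per kb in Npas3+/- and 16.6 ± 1.74 in WT (SD, n = 3), and Spry2 had 15.8 ± 3.05 in Npas3+/- and 17.1 ± 0.996 in WT. The 6 libraries of these genes overlapped each other, and all lay above those of Fgfr1, at 8.02 ± 1.84 CPM per kb in Npas3+/- and 7.63 ± 2.02 in WT. Fgfr3, Spry1, Fgf10, Fgfr2, Fgf9 and Fgf18 followed in that order, with means over the 6 libraries from 3.40 down to 1.07 CPM per kb, and each overlapped the next. Fgf2 averaged 0.151 CPM per kb over the 6 libraries and lay below Fgf18 in every library. The exon length of Fgfr2 is that of a gene model that runs to chromosome 7, position 133123350, and shares 314 exon bases with Ctbp2, so its level per kb is uncertain.

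**Figure D1:**
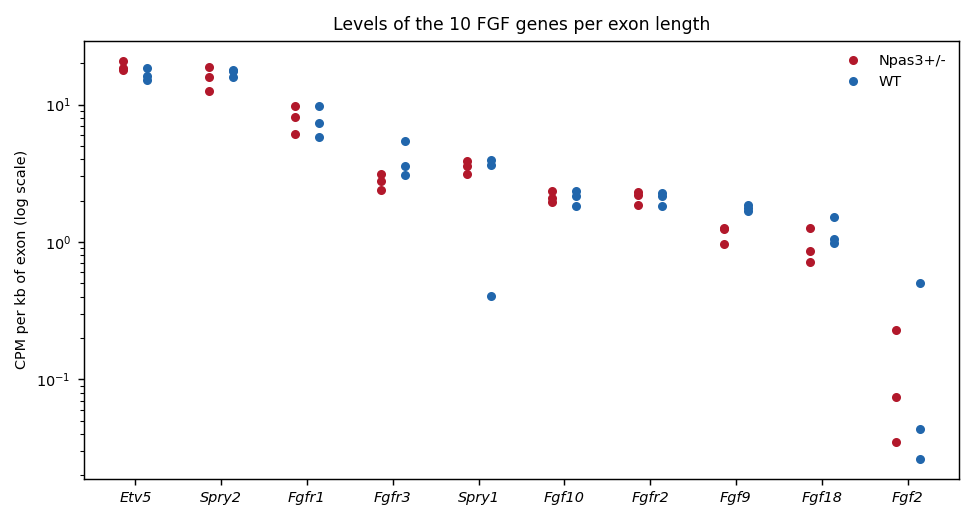
CPM per kb of exon on a log scale for each gene, ordered by the mean of the 6 libraries, with 1 point per library, Npas3+/- left of WT. Etv5 and Spry2 lie above the other genes in all libraries, 1 WT library of Spry1 lies at 0.402, and Fgf2 spreads from 0.0263 to 0.499.

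The comparison of genotypes asked whether cortex with 1 disrupted Npas3 copy differed in FGF gene expression. None of the 10 genes passed edgeR's quasi-likelihood test over all genes (0 of 10, where 0.0377% of all genes passed). At an unadjusted p under 0.05 there were 2 of 10, Fgf9 and Fgfr3, both with negative log2 fold changes, where 12.1% of all genes reached that level. Fgf9 stayed under 0.05 with any 1 library left out, while Fgfr3 did not without Npas3+/- replicate 1 (0.0778), Npas3+/- replicate 2 (0.111) or WT replicate 3 (0.111), and without the last of these Etv5 was at 0.0157. DESeq2 called 1 of the 10, Fgf9, and gave no adjusted p for Fgf2. It called 3.4% of all genes for which it gave an adjusted p. The groups did not overlap for 1 of the 10, Fgf9, which was lower in Npas3+/-, a pattern seen in 9.18% of all genes, and 0 of 10 stood apart in the higher direction, where 9.7% of all genes did. Of the 10 genes 5 had a positive and 5 a negative log2 fold change, where 51.8% of all genes were negative, with a median of -0.05, beside -0.01 over all genes tested.

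Fgf9, a secreted ligand made by neurons and glia in the brain (ENSMUSG00000021974, mm10 chromosome 14, 58070547 to 58112720), had 4.47, 5.79 and 5.89 CPM in Npas3+/- cortex, against 7.85, 8.27 and 8.64 CPM in WT. Every Npas3+/- library lay below every WT library, on counts of 393 to 445 per Npas3+/- library and 531 to 694 per WT library. The mean was 5.38 ± 0.792 CPM in Npas3+/- and 8.25 ± 0.397 CPM in WT (SD, n = 3), so Fgf9 stood at 65.3% of WT. The log2 fold change was -0.62 (SE 0.15, 95% interval -0.97 to -0.27). In edgeR the unadjusted p was 0.00394 and the adjusted p 0.276, which misses the threshold. In DESeq2 the adjusted p was 0.0201 at the same fold change. With any 1 library left out the log2 fold change of Fgf9 ran from -0.68 to -0.50, and without the Xist-high library it was -0.67 (unadjusted p = 0.00787).

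The summed level of markers of radial glia and astrocytes, cells that express FGF receptors, was lower in all 3 Npas3+/- libraries than in any WT library. Of the 14 markers on this list 13 had a negative log2 fold change, with a median of -0.41, 0 passed the threshold and none was at 0. Their summed level was 786 to 1014 CPM in Npas3+/- and 1172 to 1266 CPM in WT. In a fit that added the list score, chosen once the values were known, the log2 fold change of Fgf9 was -0.52 (unadjusted p = 0.0889) and that of Fgfr3 was -0.47 (unadjusted p = 0.241). Without the score these log2 fold changes were -0.62 and -0.55. The score did not overlap between the genotypes, with a highest value of 0.091 in Npas3+/- and a lowest of 0.142 in WT. A fit on 6 libraries can therefore hardly separate it from genotype, and the higher p-values do not show what the score accounts for. In bulk tissue, fewer cells of a type and less RNA per cell cannot be told apart. Of the 15 markers of striatum and ganglionic eminence 12 had a negative log2 fold change, with a median of -1.11, and 0 passed the threshold. Their summed level was 160 to 402 CPM in Npas3+/- and 175 to 384 CPM in WT, and the highest sum, in Npas3+/- replicate 3, included 226 CPM of Foxp1. The mean log2 scores of this list overlapped between the genotypes, and with that score added Fgf9 stood at -0.58 (unadjusted p = 0.0187). The 7 oligodendrocyte lineage markers summed to 297.3 to 312.5 CPM in Npas3+/- and 261.4 to 293.7 CPM in WT, without overlap. Of these, 6 had a positive log2 fold change. All 7 microglia markers had a negative one, with overlapping sums of 19.7 to 34.9 CPM in Npas3+/- and 29.9 to 34.9 CPM in WT. The part of these 2 lists in the results was not tested.

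**Figure D2:**
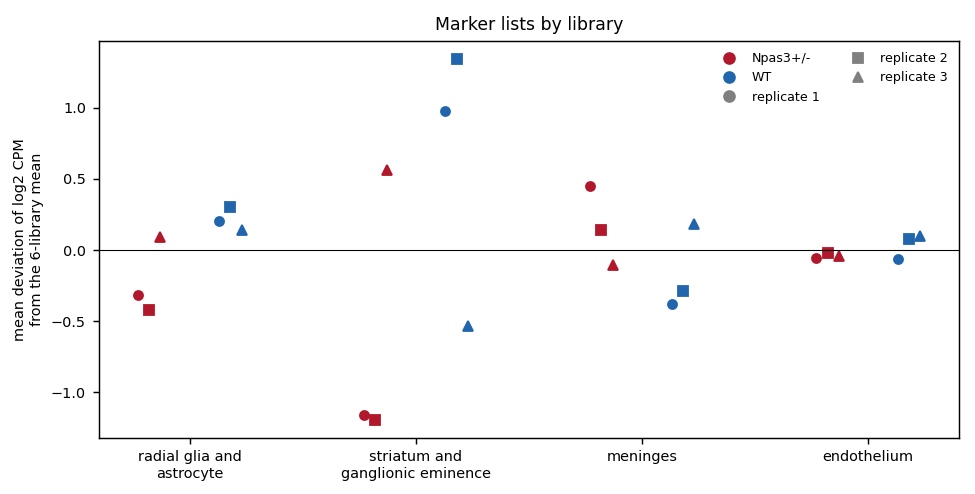
Mean deviation of log2 CPM from the mean of the 6 libraries for 4 marker lists, with 1 point per library, Npas3+/- left of WT and a symbol per replicate number. The radial glia and astrocyte scores are -0.314, -0.421 and 0.091 in Npas3+/- and 0.202, 0.3 and 0.142 in WT, while the striatal scores of both genotypes span zero.

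For the other 3 ligands the genotypes overlapped. Fgf10, a ligand known from the early telencephalon, where it acts on the change of neuroepithelial cells into radial glia (chromosome 13), had 9.05, 10.8 and 9.58 CPM in Npas3+/- and 9.89, 8.37 and 10.8 CPM in WT. The groups overlapped, and the log2 fold change was 0.02 (95% interval -0.31 to 0.34, adjusted p = 0.975). Fgf18, a ligand known from neurons of the cortical plate (chromosome 11), was scarce, at 1.49, 1.01 and 0.848 CPM in Npas3+/- and 1.82, 1.25 and 1.17 CPM in WT, on 64 to 131 counts per library. Its groups overlapped too, with a log2 fold change of -0.34 (95% interval -1.08 to 0.41, adjusted p = 0.728), and with 1 library left out it ran from -0.60 without Npas3+/- replicate 1 to -0.11 without WT replicate 1.

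Fgf2, a classical mitogen of cortical progenitors (chromosome 3, 37348346 to 37410108), had 0.501, 1.56 and 0.238 CPM in Npas3+/- and 0.296, 0.179 and 3.39 CPM in WT. WT replicate 3 was the highest library with 243 counts and Npas3+/- replicate 2 the next with 120, while the other 4 libraries held 15 to 44. The log2 fold change of -0.75 had a 95% interval of -3.37 to 1.88 (adjusted p = 0.844), and it turned to 1.70 without WT replicate 3. Fgf2 shares 640 exon bases with Nudt6 on the opposite strand, and whether counting used strand is not known. Nudt6 itself stood at 2.34 to 2.60 CPM in Npas3+/- and 1.72 to 3.50 CPM in WT, with 2.33 CPM in the WT library where Fgf2 was high.

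**Figure D3:**
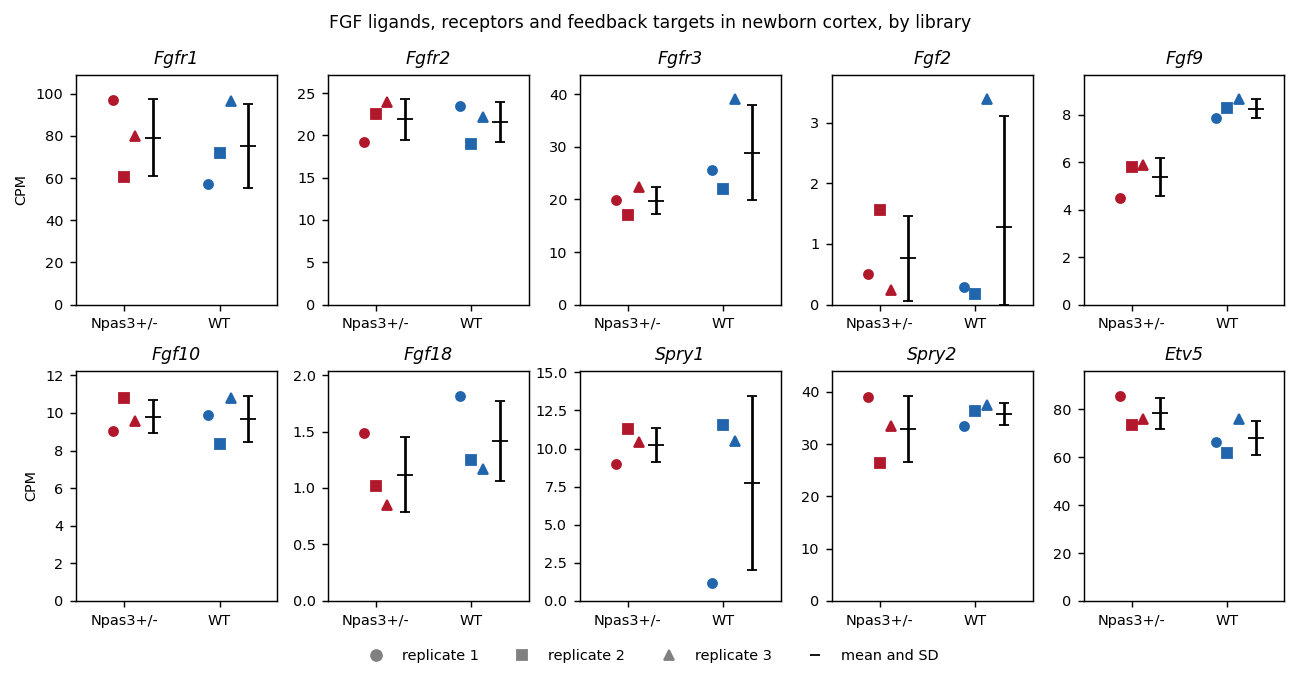
CPM of each of the 10 genes by library, Npas3+/- left of WT, a symbol per replicate number, with the mean and SD beside each group (bars are drawn down to 0 at the lowest and each axis starts at 0). Fgf9 is the gene whose groups do not overlap, WT replicate 1 stands alone for Spry1 at 1.17 CPM, and WT replicate 3 is highest for Fgf2 and Fgfr3.

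Among the receptors, Fgfr3 had a negative log2 fold change that missed the threshold, and those of Fgfr1 and Fgfr2 were near 0. Fgfr3 (chromosome 5, 33721674 to 33737068) had 19.9, 17.1 and 22.3 CPM in Npas3+/- and 25.6, 22.0 and 39.1 CPM in WT. WT replicate 3 was well above the rest, and Npas3+/- replicate 3 lay just above WT replicate 2, so the groups overlapped. The log2 fold change was -0.55 (SE 0.21, 95% interval -1.05 to -0.05, adjusted p = 0.375), and it was -0.26 without WT replicate 3. Fgfr3 shares 998 exon bases with G630022F23Rik on the opposite strand.

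Fgfr1 (chromosome 8), the receptor with the highest level per kb of the 3, had 97.1, 60.7 and 79.8 CPM in Npas3+/- and 57.3, 72.1 and 96.7 CPM in WT. Both groups spanned much the same range, and the log2 fold change was 0.07 (95% interval -0.44 to 0.58, adjusted p = 0.934). Fgfr2 (chromosome 7), the receptor that binds Fgf10 through one of its splice forms, had 19.2, 22.5 and 23.9 CPM in Npas3+/- and 23.5, 19.0 and 22.2 CPM in WT. Its log2 fold change was 0.02 with a 95% interval of -0.26 to 0.30 (adjusted p = 0.965), the narrowest interval among the receptors.

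The targets gave no change past the threshold in either direction. Etv5, an ETS factor of the Pea3 group (chromosome 16), had 85.8, 73.5 and 76.0 CPM in Npas3+/- and 66.5, 61.9 and 75.9 CPM in WT. Npas3+/- replicate 2 lay below WT replicate 3, so the groups overlapped in that pair of libraries. The log2 fold change was 0.20 (SE 0.10, 95% interval -0.02 to 0.43, adjusted p = 0.447). Spry2 (chromosome 14) had 39.0, 26.3 and 33.4 CPM in Npas3+/- and 33.4, 36.4 and 37.5 CPM in WT. Its Npas3+/- libraries held both the highest and the lowest value, and the log2 fold change was -0.12 (95% interval -0.45 to 0.21, adjusted p = 0.786).

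Spry1 (chromosome 3, 37639947 to 37644598) had 9.01, 11.3 and 10.4 CPM in Npas3+/- and 1.17, 11.6 and 10.5 CPM in WT. WT replicate 1 held 79 counts against 755 to 971 in the other 5 libraries and was 7.72 times lower than the lowest of them. The log2 fold change was 0.40 (95% interval -1.13 to 1.93, adjusted p = 0.861) and turned to -0.11 without WT replicate 1. Gm42922, which shares 710 exon bases with Spry1 on the opposite strand, was also lowest in that library, at 0.443 CPM against 0.845 to 1.63 CPM elsewhere. Of 15555 genes with a mean of at least 1 CPM, 9 were more than 5 times lower in WT replicate 1 than in every other library, and 5 to 10 genes were so in each of the other libraries. Spry1 starts 229.8 kb beyond the end of Fgf2 on the same chromosome, and the library that stood apart was a different one for each.

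The genes whose log2 CPM most resembled that of the 2 members with the smallest p were sought among 10409 genes with a mean of at least 10 CPM. For Fgf9 they were Zfp518a (Pearson r = 0.996), Rab5a (0.994) and Itfg1 (0.994), with 82 genes at 0.95 or more. For Fgfr3 they were Ctnnal1 (0.991), Mir9-3hg (0.989) and Psme1 (0.987), with 21 genes at 0.95 or more. These r describe 6 libraries that share their depth and genotype differences, and high values arise often over so few points.

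The other genes of the pathway were read from lists of 79 symbols, of which 72 were tested. In edgeR 0 of 72 passed in either direction, and 15 of 72, or 20.8%, were at an unadjusted p under 0.05, 4 higher and 11 lower in Npas3+/-, where 12.1% of all genes were. DESeq2 called 6 of the 72 pathway genes, Fgfbp3, Flrt3, Fgf12 and Dusp5 lower and Sdc1 and Shc1 higher. It called 3.4% of all genes with an adjusted p, and how many of the 72 had one is not given here. With the radial glia and astrocyte score as a covariate 2 of the tested genes were at an unadjusted p under 0.05, and with the striatal score 6. The share of all genes at that level in these fits is not given here. Over all genes, 8 passed the adjusted threshold in the main fit, 2 with the former score and 6 with the latter. That is a different measure from the unadjusted counts, so whether the lower counts are particular to the pathway cannot be told.

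Among extracellular partners, Fgfbp3, which encodes a secreted FGF-binding protein, stood at 24.7 ± 2.05 CPM in Npas3+/- and 39.9 ± 8.54 CPM in WT (log2 fold change -0.69, SE 0.16; adjusted p = 0.276 in edgeR and 0.00403 in DESeq2). Flrt3, a membrane protein that binds FGF receptors and latrophilins, stood at 36.2 ± 7.44 CPM in Npas3+/- and 54.1 ± 3.48 CPM in WT (-0.58, SE 0.14; adjusted p = 0.276 in edgeR and 0.00776 in DESeq2). Fgfrl1, a receptor that lacks a kinase domain, had a log2 fold change of 0.29 (adjusted p = 0.555). Of the 9 receptor and coreceptor genes 7 had negative and 2 positive log2 fold changes.

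Of the 19 heparan sulfate genes, whose products present FGFs to their receptors, 12 had negative and 7 positive log2 fold changes with a median of -0.09. The syndecan Sdc1 stood at 22.5 ± 1.3 CPM in Npas3+/- and 17.9 ± 0.245 CPM in WT (0.33, adjusted p = 0.276 in edgeR and 0.0404 in DESeq2), while Sdc2 stood at 12.6 ± 2.27 CPM in Npas3+/- and 17.9 ± 1.81 CPM in WT (-0.51, adjusted p = 0.29). The glypican Gpc3 stood at 0.718 ± 0.202 CPM in Npas3+/- and 1.48 ± 0.202 CPM in WT (-1.05, adjusted p = 0.289).

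Of 14 further secreted ligands 8 were tested, and none reached a mean of 2 CPM in either genotype. Fgf5 stood at 0.521 ± 0.212 CPM in Npas3+/- and 1.06 ± 0.311 CPM in WT (log2 fold change -1.03, adjusted p = 0.383). The values were 1.10 for Fgf17 (adjusted p = 0.431) and -2.08 for Fgf3 (adjusted p = 0.508). Fgf4, Fgf6, Fgf8, Fgf15, Fgf20 and Fgf21 were too low to test. The intracellular FGF homologous factors, which bind voltage-gated sodium channels and not FGF receptors, stood at higher CPM, a scale that does not correct for gene length. Fgf12 stood at 32.8 ± 1.11 CPM in Npas3+/- and 43.0 ± 5.63 CPM in WT (-0.39, SE 0.10; adjusted p = 0.276 in edgeR and 0.0388 in DESeq2), and Fgf13 at 122 ± 7.41 CPM in Npas3+/- and 144 ± 15.3 CPM in WT (-0.23, adjusted p = 0.364). In both genes the groups did not overlap, while Fgf14 (-0.22, adjusted p = 0.52) and Fgf11 (0.11, adjusted p = 0.649) overlapped. Such separation was not particular to these genes. It was seen, in either direction, in 31.9% of the 72 pathway genes tested (10 higher and 13 lower in Npas3+/-) and in 18.9% of all genes.

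The 20 adaptors and kinases of the relay had log2 fold changes from -0.15 to 0.59 with a median of 0.04, 12 positive and 8 negative. The adaptor Shc1 stood at 9.80 ± 1.06 CPM in Npas3+/- and 6.51 ± 0.2 CPM in WT (0.59, SE 0.13; adjusted p = 0.27 in edgeR and 0.00784 in DESeq2). The phospholipase Plcg1 had a log2 fold change of 0.26 (adjusted p = 0.276) and the kinase Braf one of -0.15 (adjusted p = 0.374).

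Of 12 other feedback and ETS target genes tested, 5 had positive and 7 negative log2 fold changes with a median of -0.04. The most negative was Dusp5, a nuclear ERK phosphatase induced by ERK, at 1.10 ± 0.513 CPM in Npas3+/- and 3.41 ± 0.824 CPM in WT (-1.64, SE 0.37; adjusted p = 0.272 in edgeR and 0.00323 in DESeq2). Dusp5 shares 547 exon bases with an antisense gene. The ubiquitin ligase Cbl had a log2 fold change of 0.19 (adjusted p = 0.289) and Phlda1 one of -0.23 (adjusted p = 0.447). Dusp6, the cytoplasmic ERK phosphatase often read as an FGF target, stood at 41.8 CPM in Npas3+/- and 39.6 CPM in WT (0.08, adjusted p = 0.734), a gene named after its values were seen. Etv4 and Etv1, the close relatives of Etv5, were at 0.16 and 0.01, with adjusted p of 0.701 and 0.987, and they too were named after their values were seen.

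**Figure D4:**
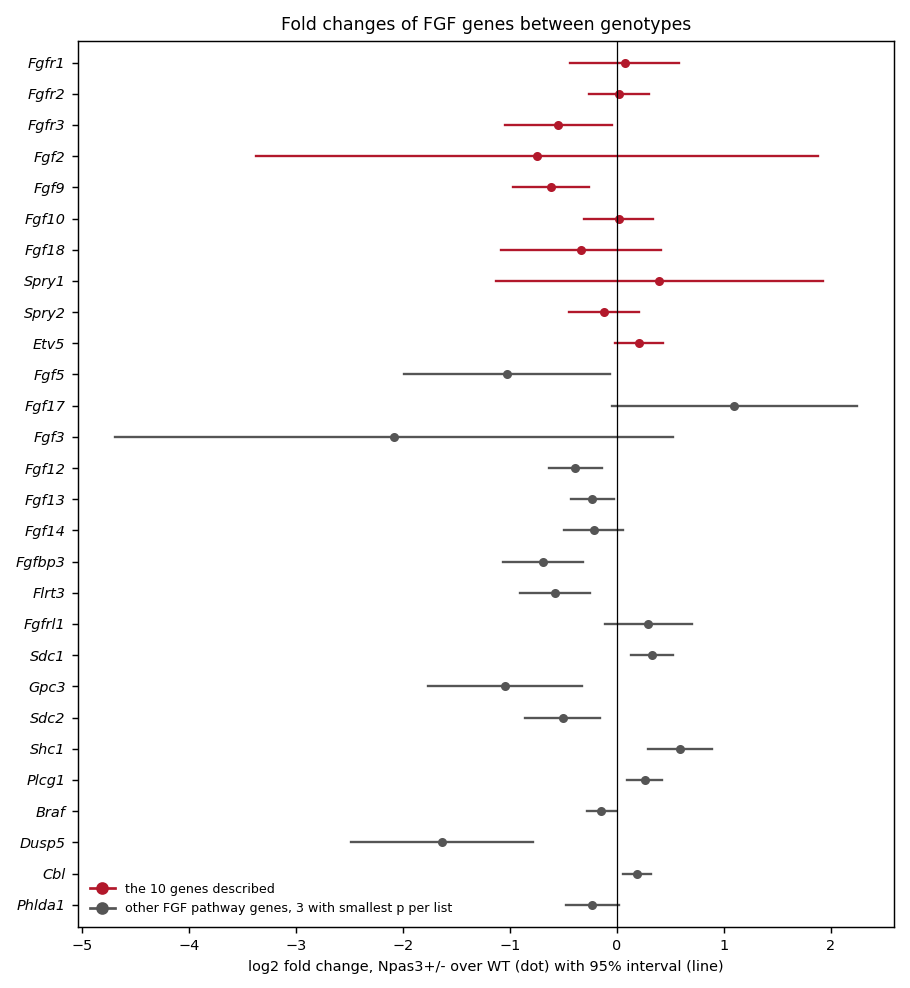
Log2 fold change of Npas3+/- over WT (dot) with its 95% interval (line), red for the 10 genes and grey for the 3 genes with the smallest p in each of 6 lists of other pathway genes. The intervals of Fgf9 and Fgfr3 lie below 0, those of Fgf2 and Spry1 are the widest of the 10, and no gene shown passed the threshold in edgeR.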

How the data were processed

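Total RNA of newborn cortex was sequenced in 3 Npas3+/- and 3 WT libraries, grouped by the titles in the labels. The columns marked NP were taken as Npas3+/-, the only genotype besides WT. The authors deposited raw read counts per gene, made with Trimmomatic 0.3.8, HISAT2 2.1.0 and featureCounts on mm10, per the submitters' processing notes. Not given in the sources used here are the annotation release, the strand setting and how multi-mapped reads were handled. Identifiers were matched without version to GENCODE M21, which named 53274 of 53379 genes. No library repeated another: the smallest chi-square between the counts of any pair was 42.5 per gene.

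The deposited counts entered edgeR 4.0.16 (R 4.3.3; filterByExpr, TMM, glmQLFit and glmQLFTest on genotype), with Benjamini-Hochberg adjustment over all 21244 genes tested and a threshold of 0.05. Standard errors are the fold change over the square root of F, and intervals are at 95%. A test of 3 against 3 by permutation cannot go below p = 0.1 and was not used. The steps were also run on simulated counts, drawn independently for each gene and library without shifts shared between genes. Their outcome is not reported here. The alternatives were DESeq2 1.42.0, voom in limma 3.58.1, upper-quartile and RLE scaling, other filters, a replicate block, 2 marker scores as covariates, GC offsets and each library left out. All members were named, and of each further list the 3 genes with the smallest p and any past the threshold. The members and lists were chosen with earlier results of these data known.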

Additional observations from a re-analysis of the deposited data

How the results depend on the processing

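The log2 fold change of the 10 genes was recomputed in 10 alternative fits and with each library left out. Of 159 such values 144 kept their direction and their side of the threshold, 14 changed sign and 1, Fgf9 in DESeq2, newly passed. The cause of these changes was not tested. With DESeq2 the counts past the threshold were 1 for the 10 genes, 6 for the other pathway genes and 511 over all genes. The count over all genes was 3 with the replicate block and 2 with the radial glia and astrocyte score. Of the 10 genes, 1 was at an unadjusted p under 0.05 with limma-voom, 0 with that score and 3 with the striatal score. For the other pathway genes the count was 2 with the radial glia and astrocyte score and 6 with the striatal score. The share of all genes at that level in these fits is not given here, so these counts have no background to be read against.

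The median log2 fold change of the 10 genes turned to 0.025 with limma-voom, 0.009 with a filter of 1 CPM in 3 libraries (which Fgf2 did not pass) and 0.021 with the replicate block. Fgfr1 turned to -0.077 with the striatal score, Fgf10 to -0.092 with it and to -0.136 with the radial glia and astrocyte score, and Fgf2 to 0.082 with limma-voom and 0.216 with the replicate block. Fgf2 also moved to -2.08 with the striatal score (unadjusted p = 0.0143, adjusted p = 0.765) and to -3.54 with the radial glia and astrocyte score (unadjusted p = 0.0635). Over all genes tested, same-numbered libraries did not deviate together (r = 0.04, -0.03 and -0.09). With 3 libraries per group this cannot show whether the numbers mark a shared litter or day, which the labels do not give. The block changed no other direction among the 10 genes.

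With 1 library left out, 7 to 16 genes passed in all, the highest without WT replicate 1, and none of the 10 genes and none of the other pathway genes did (0 and 0). The count of the 10 at an unadjusted p under 0.05 was 1 to 2, with 1 when either Npas3+/- replicate 1 or replicate 2 was left out. That of the other pathway genes was 12 to 17, and the share of all genes in these fits is not given here either. The median of the 10 ran from -0.179 to 0.077, Fgfr1 from -0.10 to 0.30, Fgfr2 from -0.062 to 0.108, Fgf2 from -1.79 to 1.70, Fgf10 from -0.079 to 0.106, Fgf18 from -0.60 to -0.11, Spry1 from -0.11 to 0.81 and Spry2 from -0.26 to 0.02. Fgf2 held 15 to 243 counts per library and Fgf18 held 64 to 131.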

Other observations

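Other pathway genes also had single libraries that stood apart, named after their values were seen. Il17rd, which encodes the FGF feedback inhibitor Sef, had 12.3, 3.38 and 2.33 CPM in Npas3+/- and 14.2, 3.17 and 2.38 CPM in WT, so that replicate 1 of each genotype was the high library. Grb2, the adaptor that links receptors to Ras activation, had 236, 233 and 244 CPM in Npas3+/- and 113, 226 and 228 CPM in WT. The low Grb2 library was WT replicate 1, the library that was also low for Spry1.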
